A study of Mus musculus with 6 samples.

Results

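The CCN family of matricellular genes was measured in livers of male mice by bulk RNA sequencing. Its 6 members were found by symbol among the 24411 genes of the deposited tables, under the older names Cyr61, Ctgf, Nov, Wisp1, Wisp2 and Wisp3, which are now Ccn1 to Ccn6 in the order Cyr61, Ctgf, Nov, Wisp1, Wisp2 and Wisp3. The mice were 24 weeks old at 12 weeks of a NASH (non-alcoholic steatohepatitis) diet, and both groups share the strain Cyr61fl/fl, in which the Cyr61 alleles are floxed. The genotypes were Control, with 3 libraries, and Cyr61KO, with 3 libraries, called Cyr61 KO below. The labels do not give the Cre driver, the cells in which the gene was removed, or whether each library is a separate animal, so p-values describe the spread between these libraries.

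CCN proteins are secreted into the matrix, where they bind integrins and proteoglycans and modulate growth factor signals rather than build fibres. Most are built from an IGF-binding-protein-like module, a von Willebrand factor type C module, a thrombospondin module and a C-terminal cystine knot, the last of which Wisp2 lacks. Cyr61 and Ctgf are immediate early genes and standard targets of YAP, TAZ and TEAD. Ctgf is also induced by TGF-beta and is a marker of fibrogenesis in the liver, while Wisp1 and Wisp2 were named as Wnt-1 induced genes.

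The libraries held 21032878 to 40377742 counts in genes. In Control replicate 2 only 50.9% of reads fell in genes, where the other libraries had 82.8% to 87.6%. That library also had the lowest summed level of the 10 hepatocyte markers, 45400 CPM (counts relative to the scaled library size) against 104000 to 139000 CPM. The tissue label was borne out by these markers, of which 0 were at 0 in all libraries, with Alb, the albumin gene, and Apoa1 the most abundant. The scaling uses edgeR's TMM factors throughout. Results for the CCN genes are given with and without Control replicate 2.

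Of the 6 members, 4 passed the filter on low counts and were tested. In the Cyr61 KO livers 3 of these 4 were called lower and 0 higher at an adjusted p below 0.05, in edgeR's quasi-likelihood test with Benjamini-Hochberg adjustment over 13563 genes. Among all genes tested 2.37% were called lower. Cyr61 is the deleted gene, so the calls outside the design were Ctgf and Wisp2, out of 3 other tested members. Every knockout library lay below every control library for Cyr61, Ctgf, Wisp2 and the untested Nov, as it did in 17.9% of all genes tested. Without Control replicate 2 the same 3 members passed, where 1.22% of all genes were called lower.

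**Figure D1:**
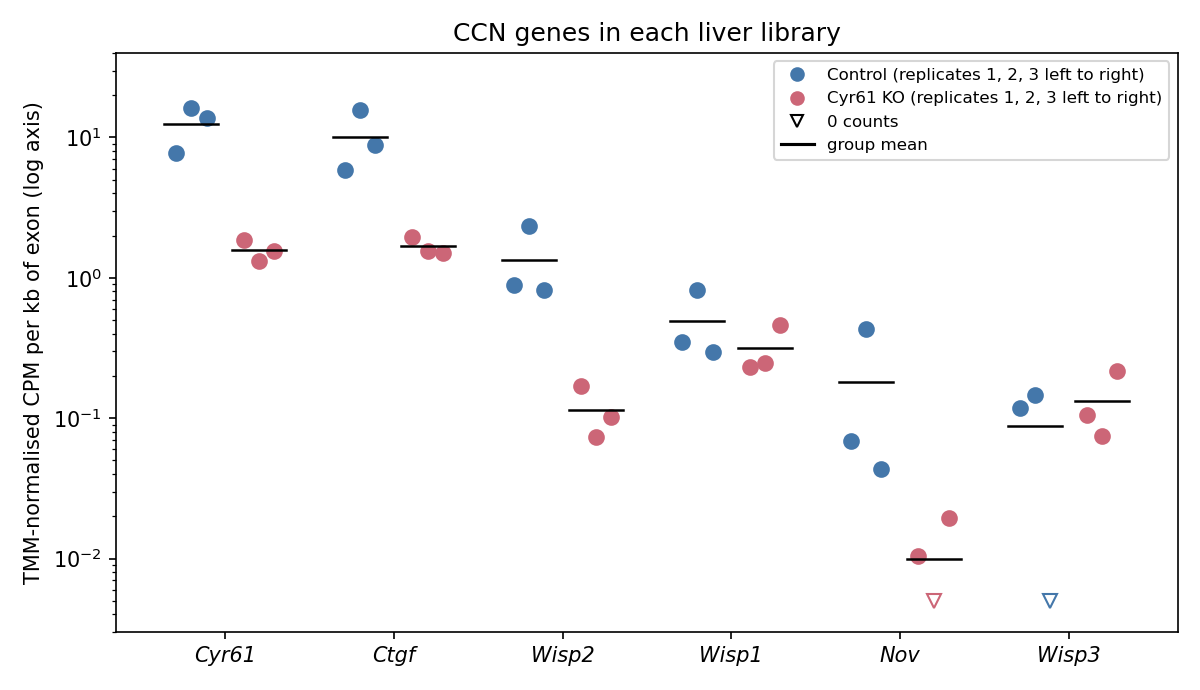
Level of each CCN gene in each library, as TMM-normalised CPM per kilobase of exon on a log axis. Blue points are Control and red points Cyr61 KO replicates 1, 2 and 3 from left to right, black bars are group means, and open triangles mark libraries with 0 counts. Cyr61, Ctgf and Wisp2 are lower in all 3 knockout libraries, and Wisp1 overlaps between the groups.

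Cyr61, the deleted gene, has 5 exons and spans chr3:145646976-145649981 in GRCm38, minus strand. Its counts were 554, 942 and 897 in Control replicates 1, 2 and 3, or 15.6, 32.4 and 27.8 CPM. The knockout replicates had 127, 75 and 112 counts, or 3.77, 2.66 and 3.14 CPM. The controls varied 2.08-fold among themselves and the knockouts 1.42-fold, with no overlap. In the knockouts 12.6% of the control mean was still counted, from 314 reads in all, or 14.7% of the mean of Control replicates 1 and 3. The tables count reads per gene and not per exon, so reads from a deleted and from an undeleted exon cannot be told apart, nor can cells that kept the gene. On the log2 scale Cyr61 fell by 2.98 ± 0.32 (SE; edgeR adjusted p = 0.0103), which placed Cyr61 at rank 9 of the 13563 genes by p. When Control replicate 2 was left out it was at -2.73 (edgeR adjusted p = 0.0191).

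Whether TEAD bears on the CCN levels here was not tested. The 250 bases before the start of Cyr61, the deleted gene, are shown because Cyr61 is a known TEAD target. They lie at chr3:145649986-145650235 in GRCm38.p6 and are written 5′ to 3′ on the minus strand, from RefSeq, with the TEAD motif CATTCC in capitals:
Cyr61: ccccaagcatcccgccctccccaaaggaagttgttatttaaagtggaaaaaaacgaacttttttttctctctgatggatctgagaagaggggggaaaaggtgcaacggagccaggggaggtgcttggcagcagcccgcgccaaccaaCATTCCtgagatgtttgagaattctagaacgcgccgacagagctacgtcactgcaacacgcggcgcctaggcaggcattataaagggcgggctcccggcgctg
The motif begins at -103 from the start, on the strand shown, and overlaps no other motif searched. CATTCC on either strand was found in 14.7% of 32851 RefSeq windows of 300 bases, which run from 250 bases before a start to 50 after it. Of the other motifs searched on both strands, TATAAA begins at -25 and is held by 13.6% of the windows. The AP-1 motif TGANTCA and the CArG box, to which SRF binds, were not in this window, and 7.81% and 1.63% of windows hold them. Nor was the TCF/LEF motif AACAAAG, held by 5.85%. The CREB-site core TGACG, on the other strand at -58, is held by 20.8% and the SMAD motif CAGAC, at 4, by 49.6%. Of the 6 members, 2 have a promoter in the table, and that of Wisp3 holds TGACG and CAGAC and no other motif searched.

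Ctgf encodes connective tissue growth factor, which promotes matrix production by stellate cells. Control replicates 1, 2 and 3 had 16.9, 44.7 and 25.1 CPM of Ctgf, from 602, 1300 and 812 counts, and the knockout replicates had 5.64, 4.43 and 4.29 CPM. All 3 knockouts were below the lowest control, and Control replicate 2 was the highest library. Group means of Ctgf were 28.9 ± 14.3 for Control and 4.79 ± 0.744 CPM for Cyr61 KO (SD, n = 3 each). The knockouts held 16.6% of the control mean, or 22.8% of it without Control replicate 2. Ctgf fell by 2.59 ± 0.36 on the log2 scale (SE; edgeR adjusted p = 0.0176). The change was -2.10 when Control replicate 2 was left out (edgeR adjusted p = 0.0215). In whole liver, fewer cells of a type and less RNA per cell cannot be told apart, for Ctgf as for every gene here. Ctgf spans chr10:24595442-24598683, plus strand, and the noncoding gene Gm15270 overlaps it on the other strand. Only 31 reads over the 6 libraries were counted on the strand opposite to Ctgf.

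Wisp2 is the member without the cystine knot, and its longest coding sequence has 251 codons against 348 to 379 in the other members. Its levels were 1.71, 4.47 and 1.58 CPM in Control replicates 1 to 3, against 0.327, 0.142 and 0.196 CPM in the Cyr61 KO libraries. Wisp2 spans chr2:163820861-163833146, plus strand. The highest knockout library was below the lowest control library by a wide margin, though on few reads, 22 in the 3 knockout libraries against 242 in the controls. The knockouts held 8.56% of the control mean, or 13.5% of it without Control replicate 2. Wisp2 fell by 3.51 ± 0.63 on the log2 scale (SE; edgeR adjusted p = 0.03), the lowest log2 fold change of the 4 tested members. Leaving out Control replicate 2 gave -2.83 (edgeR adjusted p = 0.0417).

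Leaving out 1 of the knockout libraries 1 and 2 ended some or all of these calls. Without Cyr61 KO replicate 1, Cyr61, Ctgf and Wisp2 were at -3.10, -2.71 and -3.87 with adjusted p of 0.0615, 0.0678 and 0.086, so edgeR called 0 members, although 3 had an unadjusted p under 0.05. In that comparison 0.0215% of all genes were called lower. Without Cyr61 KO replicate 2 only Cyr61 passed (adjusted p = 0.0447), and Ctgf and Wisp2 were at -2.52 and -3.27 (adjusted p = 0.0914 and 0.134), where 0.086% of all genes were called lower. With library totals as the only scaling, Cyr61 passed, and Ctgf at -2.97 and Wisp2 at -3.93 did not (adjusted p = 0.0552 and 0.0706), where 0.17% of all genes were called lower. The sign was negative for these 3 genes in every alternative tool, scaling, filter and left-out library run. DESeq2, limma voom with quality weights and edgeR with no filter on low counts each called the same 3 members, where they called 10.2%, 17.8% and 3.72% of all genes lower. So did edgeR without the first control, the third control and the third knockout library in turn, where 0.949%, 5.17% and 4.35% of all genes were called lower.

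Wisp1 encodes a secreted protein found in fibroblasts and spans chr15:66891320-66923201, plus strand. Control replicates 1, 2 and 3 had 1.94, 4.58 and 1.64 CPM of Wisp1, and the Cyr61 KO libraries 1.28, 1.38 and 2.58 CPM. The groups overlapped, since Cyr61 KO replicate 3 lay above 2 of the 3 controls. Its log2 fold change of -0.63 ± 0.52 (SE) had a 95% interval from -1.81 to 0.54 (edgeR adjusted p = 0.449). With Control replicate 2 left out it was -0.01 ± 0.42 (SE; edgeR adjusted p = 0.993), and the knockouts then held 97.6% of the control mean.

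Wisp1 and Wisp2 had nearly the same ratio in every control and parted in the knockouts. The log2 ratio of Wisp1 to Wisp2 CPM was 0.18, 0.03 and 0.06 in Control replicates 1, 2 and 3, and 1.97, 3.29 and 3.72 in Cyr61 KO replicates 1, 2 and 3. The difference of the means was 2.90 on the log2 scale. The exact two-sided permutation test of this ratio gave p = 0.1, the smallest that 3 against 3 libraries allow, or 0.15 adjusted over the 6 pairs of tested members. The ratio of Cyr61 to Wisp1 was lower in every knockout than in every control, by 2.37 on average (exact permutation p = 0.1, adjusted 0.15), and so was that of Ctgf to Wisp1, by 1.93 (exact permutation p = 0.1, adjusted 0.15). Ctgf to Wisp2 was 0.97 higher in the knockouts with no overlap (exact permutation p = 0.1, adjusted 0.15). The ratio of Cyr61 to Ctgf differed by -0.44 (exact permutation p = 0.2, adjusted 0.24) and that of Cyr61 to Wisp2 by 0.53 (exact permutation p = 0.3, adjusted 0.3), and both overlapped between the groups.

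**Figure D2:**
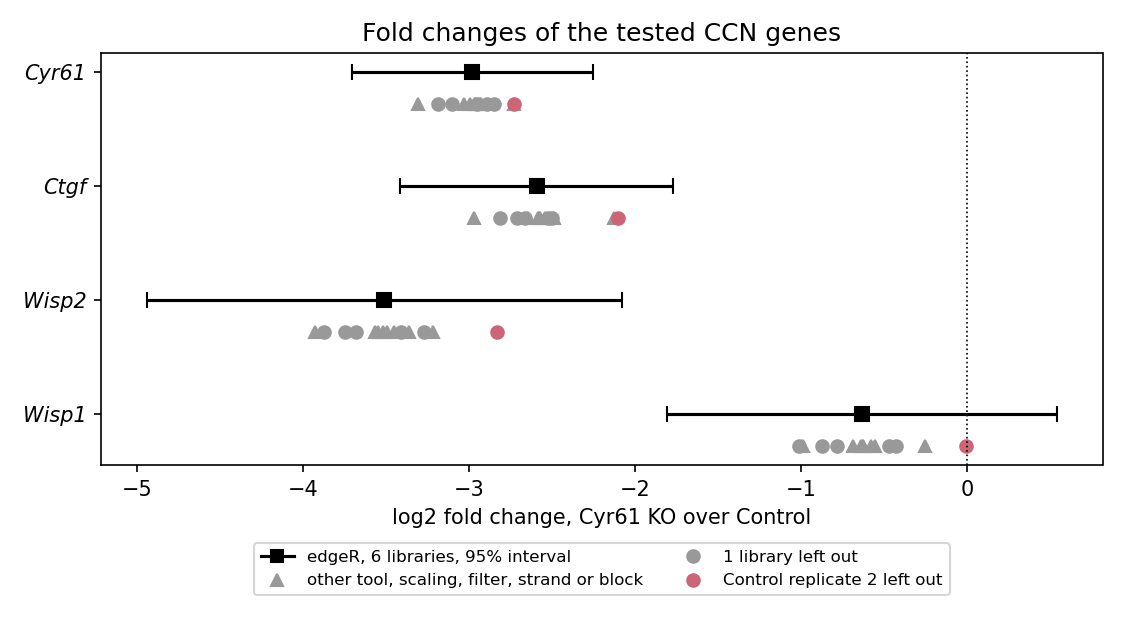
Log2 fold change of Cyr61 KO over Control for the 4 tested CCN genes. Black squares with bars are the edgeR estimates and 95% intervals over 6 libraries, triangles are other tools, scalings, filters, strand or block, and circles leave out 1 library. Cyr61, Ctgf and Wisp2 stay below -2 in all of them, while Wisp1 reaches -0.01 without Control replicate 2.

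Nov, a CCN gene with antiproliferative and antifibrotic roles, was too low to be tested. It had 7, 36 and 4 counts in Control replicates 1, 2 and 3 and 1, 0 and 2 counts in the knockouts, and so 0.197, 1.24 and 0.124 CPM against 0.0297, 0 and 0.0561 CPM. No knockout library reached the lowest control, but Control replicate 2 supplied most of the control reads. Nov spans chr15:54745702-54754039, plus strand. A count of 0 in Cyr61 KO replicate 2 allows up to 0.106 CPM (3 counts). Over the summed reads the knockout level was 0.0635 of the control level, with an exact 95% interval from 0.0126 to 0.197, or 0.19 from 0.034 to 0.719 without Control replicate 2. These intervals cover counting error only. With no filter on low counts Nov was at -3.87 ± 1.21 (SE; edgeR adjusted p = 0.0799).

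Wisp3 was the least abundant member in the controls, per kilobase, and was not tested. It had 6, 6 and 0 counts in Control replicates 1, 2 and 3 and 5, 3 and 11 counts in the knockouts, and so 0.169, 0.207 and 0 CPM against 0.149, 0.106 and 0.308 CPM. The count of 0 allows up to 0.0928 CPM. The groups overlapped, with both the lowest and the second highest library among the controls. The summed knockout level was 1.57 of the control level with an exact 95% interval from 0.726 to 3.56, or 2.21 from 0.847 to 6.75 without Control replicate 2. With no filter on low counts Wisp3 was at 0.64 ± 1.09 (SE; edgeR adjusted p = 0.729). Any difference was not detectable at this depth. Wisp3 spans chr10:39150970-39163794, minus strand, and Tube1 overlaps it on the other strand.

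Levels of different members were compared per kilobase of exon. In the controls the order was Cyr61 at 12.5 ± 4.31, Ctgf at 10.1 ± 5.0, Wisp2 at 1.35 ± 0.85, Wisp1 at 0.489 ± 0.291, Nov at 0.181 ± 0.218 and Wisp3 at 0.0881 ± 0.0775 CPM per kilobase (SD, n = 3). Of the neighbours in that order, only Ctgf and Wisp2 had ranges that did not overlap. Wisp2 was nonetheless above Wisp1 within 3 of 3 control libraries, and Cyr61 above Ctgf within 3 of 3. With the length of the longest transcript in place of all exons, Cyr61 was above Ctgf in 2 of 3 controls and 0 of 3 knockouts, since Control replicate 2 then had 18.0 for Ctgf against 16.1 CPM per kilobase for Cyr61. In the knockouts Ctgf stood at 1.67 ± 0.26 and Cyr61 at 1.58 ± 0.276 CPM per kilobase (SD, n = 3), which overlapped. Wisp1 came next at 0.314 ± 0.13, followed by Wisp3 at 0.132 ± 0.0751, Wisp2 at 0.115 ± 0.0494 and Nov at 0.00997 ± 0.00978 CPM per kilobase (SD, n = 3). Wisp2 was below Wisp1 within 3 of 3 knockout libraries, the opposite of the controls, and Cyr61 was above Ctgf within 1 of 3.

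The summed level of the 6 members was 15, 35.4 and 23.7 CPM per kilobase in Control replicates 1, 2 and 3. It was 4.36, 3.26 and 3.86 in the knockouts. Cyr61 and Ctgf made up most of it in every library. Cyr61 held 45.3% to 58.0% of the sum in the controls and still 40.3% to 42.9% in the knockouts. Ctgf held 37.1% to 44.1% and 38.9% to 47.5%. The share of Wisp1 was 1.24% to 2.32% in the controls and 5.27% to 12.0% in the knockouts, with no overlap, although its level did not pass the test. That of Wisp3, on few counts, was 0% to 0.789% and 2.3% to 5.63%, also with no overlap. Since Cyr61, the deleted gene, and Ctgf make up most of the sum and fell, a member that does not fall gains share.

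**Figure D3:**
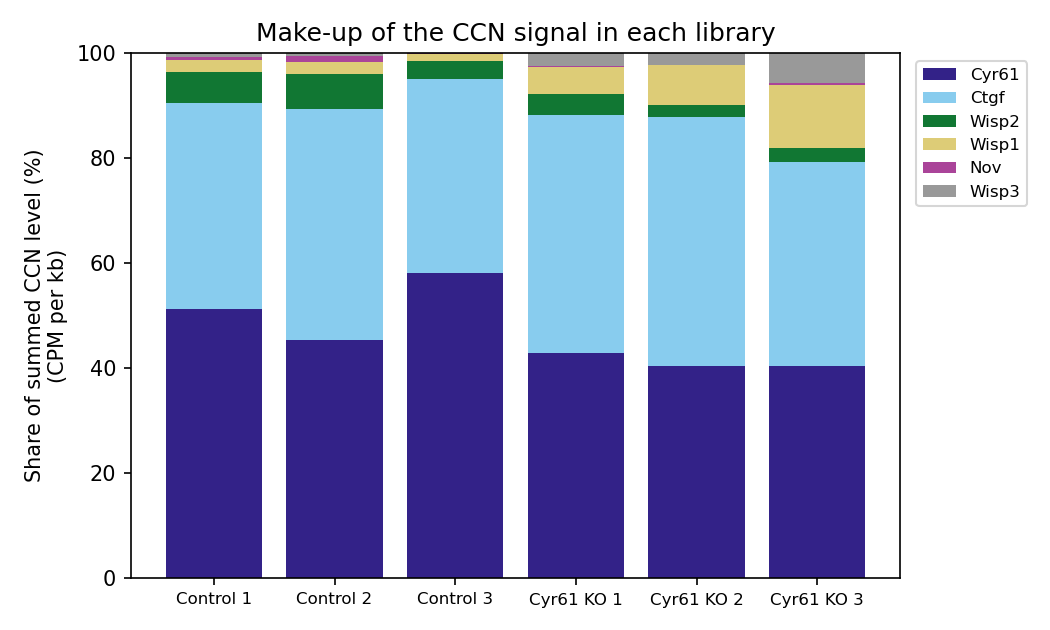
Share of each CCN gene in the summed level of the 6 members, in percent of CPM per kilobase, as stacked bars from 0 to 100 for each library. Cyr61 (dark blue) and Ctgf (light blue) fill most of every bar, and the Wisp1 segment (yellow) takes 1.24% to 2.32% in the controls and 5.27% to 12.0% in the knockouts.

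The genes most like each tested member were ranked by the root mean square difference between log2(CPM + 1) profiles centred on their mean over the 6 libraries, among 11922 candidates. This is a description with no test, and the added 1 compresses the profiles of low genes. Ctgf was the nearest of all to Cyr61, at 0.24 on the log2 scale, followed by the metallothionein gene Mt1 at 0.28 and Fam25c at 0.28. Nearest to Ctgf were Fam25c at 0.20, the monocyte gene Plac8 at 0.22 and Cyr61 at 0.24. Nearest to Wisp2 were Arhgap15, a gene of leukocytes, at 0.06, Snhg1 at 0.10 and Pdlim2 at 0.10. Nearest to Wisp1 were the IGF-1 receptor gene Igf1r, Ankrd13b and Syce2, at 0.05, 0.05 and 0.06. Igf1r was at 3.90, 8.33 and 3.34 CPM in the controls and 2.55, 2.70 and 4.6 CPM in the knockouts, and like Wisp1 it was highest in Control replicate 2.

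Among YAP, TAZ and TEAD target genes other than Cyr61 and Ctgf, 3 of 27 tested were called lower and 0 higher, where 2.37% of all genes were called lower and 1.07% higher, with a median log2 fold change of -0.66 against -0.03 for all genes tested. Those called were Areg, an EGF-receptor ligand gene, at -2.75, Ccdc80, a matrix protein gene, at -1.44, and Gadd45b, a stress gene, at -2.90 (edgeR adjusted p = 0.0303, 0.0445 and 0.0497). Ankrd1 and Amotl2 were chosen after their values were seen, as standard readouts of the pathway. Ankrd1 was at 3.03, 12.8 and 1.83 CPM in the controls and 0.861, 1.10 and 0.841 CPM in the knockouts, a log2 fold change of -2.65 (adjusted p = 0.0718), or -1.36 without Control replicate 2. Amotl2 was at 30.0, 29.7 and 28.9 CPM in the controls and 36.0, 31.1 and 35.7 CPM in the knockouts, a log2 fold change of 0.22 ± 0.18 (SE; adjusted p = 0.451). With Control replicate 2 left out the median of the list was -0.08, against 0.02 for all genes, and 1 gene was called, Areg, where 1.22% of all genes were called lower. Gadd45b was then at -1.84 (edgeR adjusted p = 0.0709). Leaving out Control replicate 1 gave 0 calls by edgeR, as did leaving out knockout replicate 1 or 2 (10, 6 and 7 lower at an unadjusted p under 0.05, where edgeR called 0.949%, 0.0215% and 0.086% of all genes lower). Without Control replicate 3 or Cyr61 KO replicate 3 edgeR called 5 and 6, where 5.17% and 4.35% of all genes were called lower. DESeq2 called 7 lower and 2 higher (Dock5 and Nuak2) over all libraries, against 10.2% and 6.54% of all genes.

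Of 24 TGF-beta ligand, receptor and target genes besides Ctgf, 8 were called lower and 0 higher by edgeR, which called 2.37% of all genes lower, at a median of -0.98. The 8 called genes are all targets or matrix genes, and 0 are ligands or receptors. Col1a1 and Col1a2, the chains of type I collagen, fell by 2.27 and 1.67 on the log2 scale, Eln, the elastin gene, by 2.33, and Ltbp2, which encodes a matrix protein of microfibrils, was at -2.24 (edgeR adjusted p = 0.0184, 0.0272, 0.0272 and 0.0184). The ligand genes of this list, Tgfb1 and Tgfb3, were at -0.98 and -1.57 and did not pass (edgeR adjusted p = 0.0938 and 0.0987). The ligand gene Tgfb2, counted in the YAP, TAZ and TEAD list, was at -1.39 and did not pass either (edgeR adjusted p = 0.144). The receptor genes Tgfbr1 and Tgfbr2 were at -0.36 and -0.01. Tgfb1, Tgfb2, Tgfb3, Tgfbr1 and Tgfbr2 were named for their role, after their values were seen. Leaving out Control replicate 2, 7 genes of this list were called, at a median of -0.76, where 1.22% of all genes were called lower. Without Cyr61 KO replicate 1 or 2 edgeR called 0 in each case (14 and 14 lower at an unadjusted p under 0.05), where 0.0215% and 0.086% of all genes were called lower.

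Of 19 tested immediate early and SRF-linked genes besides Cyr61, 6 were called lower and 0 higher, against 2.37% of all genes called lower, at a median of -1.53. Atf3, Jun, Egr1 and Egr2, all transcription factor genes, fell by 3.31, 1.53, 2.66 and 2.74 on the log2 scale (edgeR adjusted p = 0.0107, 0.0219, 0.0243 and 0.0334). Srf itself, chosen after its value was seen, was at 0.11 (adjusted p = 0.713). Without Control replicate 2, 4 were called, at a median of -0.81 (1.22% of all genes). Without Control replicate 1 edgeR called 3 (0.949% of all genes), and without Cyr61 KO replicates 1 and 2 it called 0 and 1 (0.0215% and 0.086% of all genes, with 12 and 11 of the list lower at an unadjusted p under 0.05). Without Control replicate 3 it called 9 of 21 tested (5.17% of all genes).

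Of 13 tested matricellular genes outside the family, 3 were called lower and 0 higher, beside 2.37% of all genes called lower, at a median of -1.39. Smoc2, which encodes a calcium-binding matricellular protein, Fbln1, the fibulin 1 gene, and Thbs2, the thrombospondin 2 gene, were all called. Smoc2 was at 28.7, 33.0 and 35.1 CPM in the controls and 8.97, 13.9 and 11.5 CPM in the knockouts, -1.5 in log2 (edgeR adjusted p = 0.0205). Fbln1 and Thbs2 were at -1.93 and -1.39 on the log2 scale (edgeR adjusted p = 0.0441 and 0.0463). When Control replicate 2 was left out the count was 1 (1.22% of all genes), at a median of -0.87, and Fbln1 and Thbs2 were at -1.49 and -1.28 (edgeR adjusted p = 0.0727 and 0.082). Without Control replicate 1 it was 1 (0.949% of all genes), and without Control replicate 3 it was 8 (5.17%). Without Cyr61 KO replicate 1 or 2 edgeR called 0 (10 and 11 lower at an unadjusted p under 0.05), where 0.0215% and 0.086% of all genes were called lower. DESeq2 called 10 lower over all libraries, against 10.2% of all genes. Among 10 tested genes that share the IGF-binding-protein module, 1 was called lower, Htra1, a secreted protease gene, at -1.47 (edgeR adjusted p = 0.0459). Igfbp3 was counted in the YAP, TAZ and TEAD list instead, at -0.25 (edgeR adjusted p = 0.622), and was named after its value was seen. Htra1 did not pass without Control replicate 1 or 2 (adjusted p = 0.0636 and 0.0816), nor without any 1 of the knockout libraries (adjusted p from 0.0621 to 0.127). Without Control replicate 2 the call in this list was Igfbp7 at -1.02, named after its value was seen (edgeR adjusted p = 0.0468).

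Of 17 tested genes that Wnt and beta-catenin induce, edgeR called 5 higher and 0 lower, at a median of 1.17, where 1.07% of all genes were called higher. Glul, the glutamine synthetase gene of pericentral hepatocytes, rose by 2.44 on the log2 scale, Slc1a2, a glutamate transporter gene, by 2.65, Cyp1a2 by 1.57 and Rnf43, a feedback inhibitor of Wnt, by 1.17 (edgeR adjusted p = 0.0113, 0.0146, 0.0272 and 0.036). Of the 17 genes, 4 had a negative log2 fold change, among them the proliferation genes Myc at -1.57 and Ccnd1 at -1.17 (edgeR adjusted p = 0.0746 and 0.184). Myc and Ccnd1 were named after their values were seen. Myc was called lower by DESeq2, by limma voom, by edgeR with no filter on low counts and without Control replicate 3 (-1.94), and Ccnd1 by limma voom and by edgeR without Cyr61 KO replicate 3 (-2.12). Several members of this list are expressed by pericentral hepatocytes, whereas Wisp1 and Wisp2 are known from stromal cells. Whether this bears on the fold changes here was not tested. With Control replicate 2 left out 4 were called (0.923% of all genes higher), at a median of 1.06, and Rnf43 did not pass (adjusted p = 0.0584). Without Control replicate 1 edgeR called 2 (0.312% of all genes higher), and without Cyr61 KO replicates 1 and 2 it called 0 and 1 (0.0287% and 0.086% of all genes higher, with 11 and 10 of the list higher at an unadjusted p under 0.05).

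Of 17 tested genes for CCN protein receptors, which are integrins, proteoglycans and others, edgeR called 0 lower and 0 higher, with 1 lower and 1 higher at an unadjusted p under 0.05. Of all genes, edgeR called 2.37% lower and 1.07% higher. DESeq2 called 1 receptor gene lower, Itgb2, a leukocyte integrin gene, where it called 10.2% of all genes lower. Limma voom called 3 lower (Itgb2, Cd36 and Itgb5) and 1 higher (Lrp6), where it called 17.8% of all genes lower and 15.3% higher. The DESeq2 and limma voom counts are thus near or below those of all genes. The median was -0.24, or 0.03 without Control replicate 2. Leaving out Control replicate 3 or Cyr61 KO replicate 3 gave 1 and 2 lower calls by edgeR, Itgb2 in both and Cd36 in the second. In those comparisons 5.17% and 4.35% of all genes were called lower. Itgb2, Cd36, Itgb5 and Lrp6 were named after their values were seen. The most abundant were Lrp1, an endocytic receptor gene, at 0.47 ± 0.28 (SE; edgeR adjusted p = 0.299), and Sdc4, the syndecan 4 gene, at 0.22 ± 0.35 (SE; edgeR adjusted p = 0.706).

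The list counts changed with the tool and the scaling. DESeq2 called 14 TGF-beta, 9 immediate early and 3 IGF-binding-protein-module genes lower and 10 Wnt target genes higher, where it called 10.2% of all genes lower and 6.54% higher. Limma voom called 11 YAP, 14 TGF-beta, 10 immediate early, 11 matricellular and 5 IGF-binding-protein-module genes lower and 11 Wnt target genes higher. It also called 3 YAP and 2 TGF-beta genes higher and 2 Wnt target genes lower, where it called 17.8% of all genes lower and 15.3% higher. Under library totals alone, edgeR called 2 immediate early genes lower (0.17% of all genes), 1 Wnt target gene higher (0.199% of all genes) and 0 in each of the YAP, TGF-beta, matricellular and IGF-binding-protein-module lists (12, 14, 12 and 5 lower at an unadjusted p under 0.05). Leaving out Control replicate 3 gave 4 Wnt target genes higher and 1 lower, and leaving out Cyr61 KO replicate 3 gave 6 higher and 1 lower, where 1.14% and 1.22% of all genes were called higher.

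**Figure D4:**
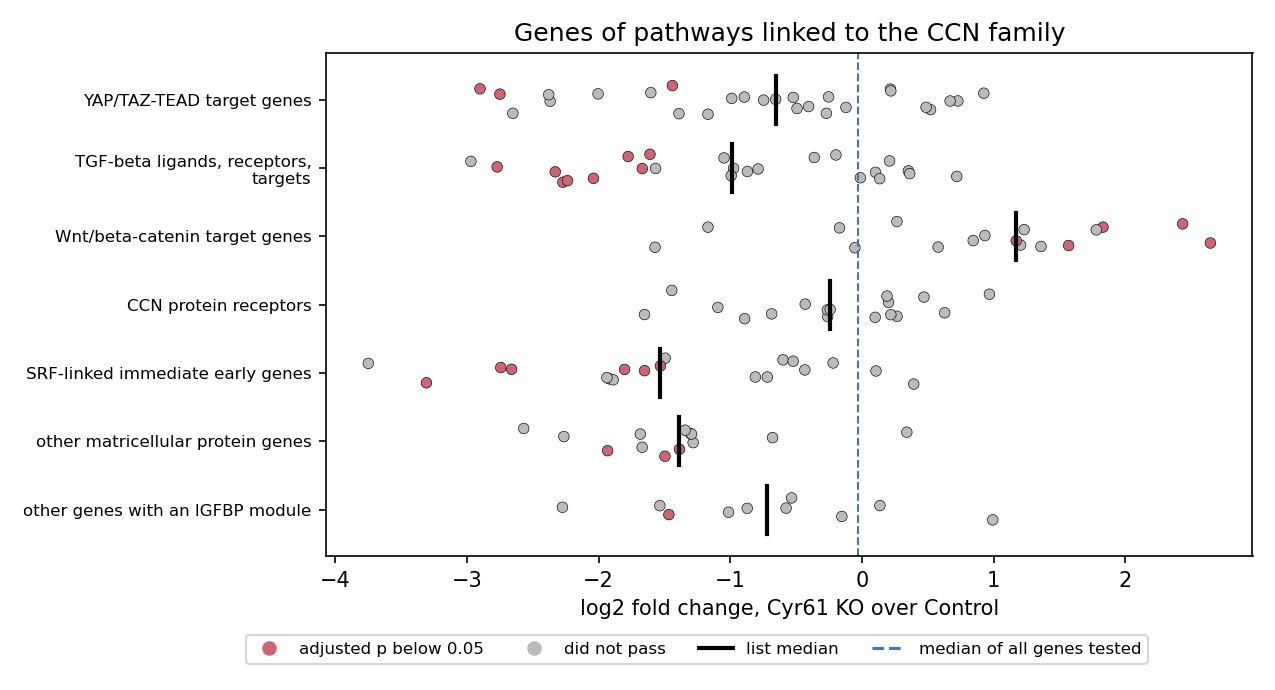
Log2 fold change of Cyr61 KO over Control for each tested gene of 7 lists linked to the CCN family. Red points passed an adjusted p below 0.05, grey points did not, black bars are list medians and the dashed line is the median of all genes tested, -0.03. Medians run from -1.53 for immediate early genes to 1.17 for Wnt target genes.

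Markers of several cell types moved with the same libraries. The summed level of 12 portal fibroblast and mesothelial markers was 79.7 to 161 CPM in the controls and 34.4 to 54.5 CPM in the knockouts, and that of 8 smooth muscle markers 27.3 to 83.9 CPM and 18.8 to 22.4 CPM. Sums of 10 cholangiocyte markers, 256 to 1420 CPM and 104 to 183 CPM, and of 12 monocyte-derived macrophage markers, 501 to 1720 CPM and 122 to 270 CPM, did not overlap either. The 11 measured gallbladder, large duct and gut epithelial markers summed to 48.8 to 1340 CPM and 4.75 to 12.6 CPM, with Dmbt1 and Tff3 the most abundant on average. Dmbt1 was at 1150 CPM in Control replicate 2 and only 0.119 to 0.449 CPM in the other libraries. Tff3 was at 40.6, 30.7 and 106 CPM in the controls and 7.93, 0.745 and 1.37 CPM in the knockouts. Control replicate 2 had the highest sum in each of these 5 lists, and it had the highest Cyr61, Ctgf, Nov, Wisp1 and Wisp2. The 12 stellate cell and myofibroblast markers overlapped in their sums, at 344 to 505 CPM in the controls and 273 to 375 CPM in the knockouts, as did the 10 endothelial markers, at 209 to 360 CPM and 261 to 388 CPM, and the 8 Kupffer cell markers, at 651 to 750 CPM and 245 to 677 CPM. Ecm1, the most abundant stellate marker, was at 65.2, 113 and 106 CPM in the controls and 125, 156 and 129 CPM in the knockouts. Less Ecm1, the rest of the stellate sum was lower in every knockout than in every control. Of the 12 stellate markers, 9 had a negative log2 fold change. By edgeR 3 of 12 stellate, 2 of 12 portal fibroblast, 1 of 6 smooth muscle, 1 of 10 cholangiocyte, 1 of 6 gallbladder, 7 of 12 macrophage and 1 of 8 Kupffer cell markers tested were called lower, where 2.37% of all genes were called lower and 1.07% higher. Of the endothelial and Kupffer cell markers 2 and 1 were called higher, and 0 of 10 hepatocyte markers were called. The most abundant members were Ecm1 and Reln for stellate cells, Dpt and Entpd2 for portal fibroblasts, Des and Smtn for smooth muscle, Spp1 and Sox9 for cholangiocytes, Spp1 and Cd9 for macrophages, Eng and Clec4g for endothelium and Cd5l and C1qa for Kupffer cells. Spp1 stands in both the cholangiocyte and the macrophage list. It was at 221, 1110 and 193 CPM in the controls and 69, 61.9 and 126 CPM in the knockouts, most of the cholangiocyte sum in every library. Sox9 overlapped between the groups, at 17.1, 47.4 and 15 CPM against 17.1, 8.69 and 18.6 CPM (edgeR adjusted p = 0.267). The cholangiocyte sum was not taken without Spp1. Des stands in both the smooth muscle and the stellate list, and was the smooth muscle marker called lower (edgeR adjusted p = 0.0429). It was at 13.1, 24.6 and 13.2 CPM in the controls and 6.3, 6.42 and 6.81 CPM in the knockouts. Smtn overlapped between the groups, at 8.57, 16.1 and 10 CPM against 6.27, 8.23 and 10.7 CPM. Less Des, the rest of the smooth muscle sum overlapped between the groups. Control replicate 1 had a sum of 27.3 CPM with Des at 13.1 CPM. Cyr61 KO replicate 3 had 22.4 CPM with Des at 6.81 CPM, which leaves more. No measured marker was at 0 in all 6 libraries. The part of these cell types in the CCN results was not tested.

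**Figure D5:**
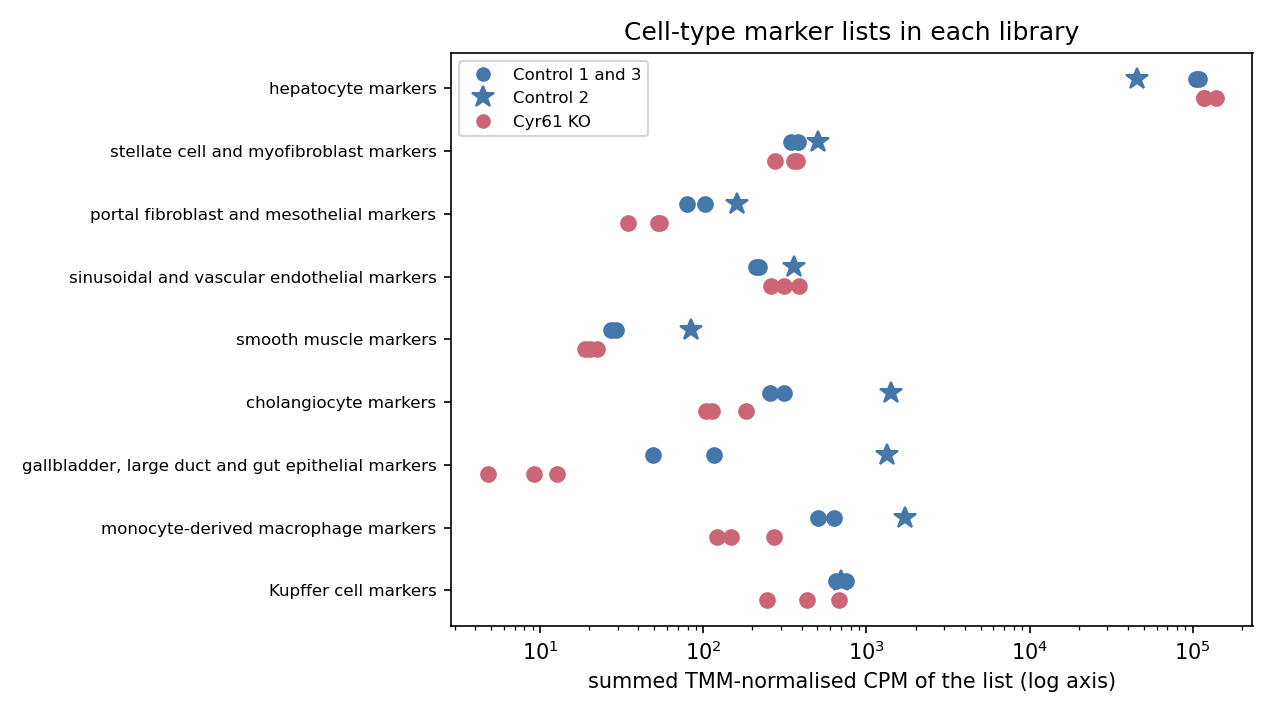
Summed CPM of each cell-type marker list in each library, on a log axis. Blue circles are Control replicates 1 and 3, blue stars Control replicate 2 and red circles Cyr61 KO. Control replicate 2 is lowest for hepatocyte markers, 45400 CPM, and highest for cholangiocyte markers, 1420 CPM.

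The CCN genes lie on chromosomes 2, 3, 10 and 15, with Ctgf and Wisp3 on chromosome 10 and Nov and Wisp1 on chromosome 15. The nearest tested gene on either side of each member was compared, 12 genes in all. Of these edgeR called 0, with 3 at an unadjusted p under 0.05. DESeq2 called 2, where it called 10.2% of all genes lower and 6.54% higher, so the count is near that of all genes. Beside Cyr61, Znhit6 at a distance of 42181 bases was at -0.09 ± 0.25 (SE; edgeR adjusted p = 0.826). Ddah1, at 108694 bases on the other side, was at 1.31 ± 0.32 (SE), with an adjusted p of 0.06 by edgeR and 0.000927 by DESeq2. Sla, beside Wisp1, was at -1.78, with an adjusted p of 0.0536 by edgeR and 0.00126 by DESeq2. Beside Ctgf, Enpp1 and Stx7 were at 0.20 and -0.56 (edgeR adjusted p = 0.584 and 0.193).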

How the data were processed

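RNA was measured in 6 liver libraries, grouped by the genotype in the labels. The deposited values are read counts per gene, 1 table per library. Tools named in the submitters' processing notes are STAR 2.6.1a and Trimmomatic 0.38, with mm10 and hg38 as builds. The annotation release is not given in the sources used here. The reverse-strand counts were used, since the kit was directional, and the opposite strand held 0.928% to 1.35% of stranded counts. Rows for reads outside genes, 12.4% to 49.1% of reads, stayed out of library sizes and tests.

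The test was the quasi-likelihood F test of edgeR 4.0.16 (R 4.3.3) with TMM scaling and a group term, on genes kept by filterByExpr at its defaults of 10 counts and a total of 15. limma 3.58.1 and DESeq2 1.42.0 were alternatives. The tests were tested on simulated data with added changes of 2, 4, 8 and 16-fold. There edgeR called 13.3%, 82.7%, 86% and 100% of these in the right direction. DESeq2 and limma voom called 31.3% and 10% of the 2-fold changes. A gene not called may thus still differ by 2-fold, and less often by 4-fold or 8-fold. The simulated data held no outlying library like Control replicate 2. Replicates of a group differed by more than sampling noise (chi-square per degree of freedom 58.3 or more). Exon lengths and positions came from GENCODE on GRCm38, with the 6 members matched through RefSeq synonyms. Named genes are the members, at most 4 called genes of each pathway list by p, the 2 most abundant genes of a list with no call or of a marker list, and the 3 genes most like each tested member. The members and lists were chosen with earlier results of these data known.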

Additional observations from a re-analysis of the deposited data

How the results depend on the processing

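The count of genes called in the whole table depended strongly on the processing. Over all genes edgeR called 322 lower and 145 higher, against 1387 and 886 with DESeq2, 2409 and 2074 with limma voom and quality weights, 23 and 27 when libraries were scaled by their totals alone, and 666 and 278 with no filter on low counts. Leaving out 1 library at a time gave 3 to 720 lower and 4 to 169 higher. Of the CCN members 3 were called lower in each of these settings except under library totals, with 1, and without 1 library, where the count ran from 0 to 3. Library totals moved the all-gene median from -0.03 to -0.30. Taking the longest transcript as the gene length kept each member's control mean within 1 SD but turned the order of Cyr61 and Ctgf in Control replicate 2 and Cyr61 KO replicate 3.

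The labels do not say whether the replicate numbers pair the libraries. Same-numbered libraries had correlations of -0.10, -0.23 and -0.44 between their deviations from the group means, and none correlated best with its own number. With 3 libraries in each group these correlations cannot exclude a pairing. With the replicate block 471 genes were called lower and 162 higher, 3 of them CCN members, with Cyr61, Ctgf, Wisp1 and Wisp2 at -2.93, -2.49, -0.56 and -3.36, and the Wnt target gene Myc was called lower. Depth limits Nov and Wisp3, which had at most 36 and 11 counts in a library.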
